A study of Drosophila melanogaster with 3 samples.

Results

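The genes serpent (srp) and pannier (pnr) lie close together on chromosome arm 3R of Drosophila melanogaster, and HA-Ubx peaks in the 100 kb around them were examined as a group. Both encode GATA factors, zinc-finger transcription factors that bind DNA at the letters GATA. The members were chosen by position: a peak belonged to the region if its midpoint lay between 11780000 and 11880000 on 3R in the dm3 build. This rule found 29 peaks, out of 10337 in the whole list and 2318 on 3R, of which 2289 lay outside the region. The region was picked with the peak list in view, so the number, crowding and strength of its peaks are given as a description and carry no test.

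The peaks come from chromatin immunoprecipitation followed by sequencing of S2-DRSC cells, a fly line of late embryonic origin, that carry a stably integrated, HA-tagged form of the Hox protein Ubx. The samples are 2 immunoprecipitations with an antibody against HA (ab9110) and 1 input, all from HA::Ubx cells kept for 24 h in 10 micromolar copper sulphate. Cells without the HA::Ubx construct were not analysed here, and the labels do not give the promoter that drives it, nor whether the line is 1 clone, nor whether the replicates are separate cultures. The 2 immunoprecipitations share 1 deposited peak list, so no value below has a replicate error, and read depth behind each peak is unknown. Each peak has a position and a score given by the authors; a higher score is read here as a stronger peak, although the scale of the score is not given in the sources used here.

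Ubx belongs to the Hox family, which gives body segments their identity, and is best known for making the third thoracic segment differ from the second, with halteres in place of wings. Serpent is required for embryonic blood cells, fat body and endoderm, and S2 cells themselves resemble blood cells. Pannier patterns dorsal tissue, including the heart and the bristles of the dorsal thorax. Another GATA gene, GATAe, lies between them and is known for its role in the midgut. RNA was not analysed here, so whether any of these genes was active in the cells was not examined.

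The genes were placed with the offset that the rule states for 3R, by which a dm3 position is the Release 6 position less 4174278. This offset was checked against the peaks, because many of them lie at gene starts. At the stated offset, 42.0% of the 350 protein-coding gene starts within 1 Mb of the region had a peak midpoint within 500 bp. The highest share at any shift of more than 5 kb, up to 100 kb either way, was 19.1%, and the median over those shifts was 12.0%. Over the whole arm the share was 37.2% of 4532 gene starts at the stated offset, with a highest value of 11.6% at shifts of more than 5 kb. In both cases the highest share of all shifts tried, in steps of 100 bp, fell at a shift of 0. Gene positions below are Release 6 positions placed on dm3 in this way.

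**Figure D1:**
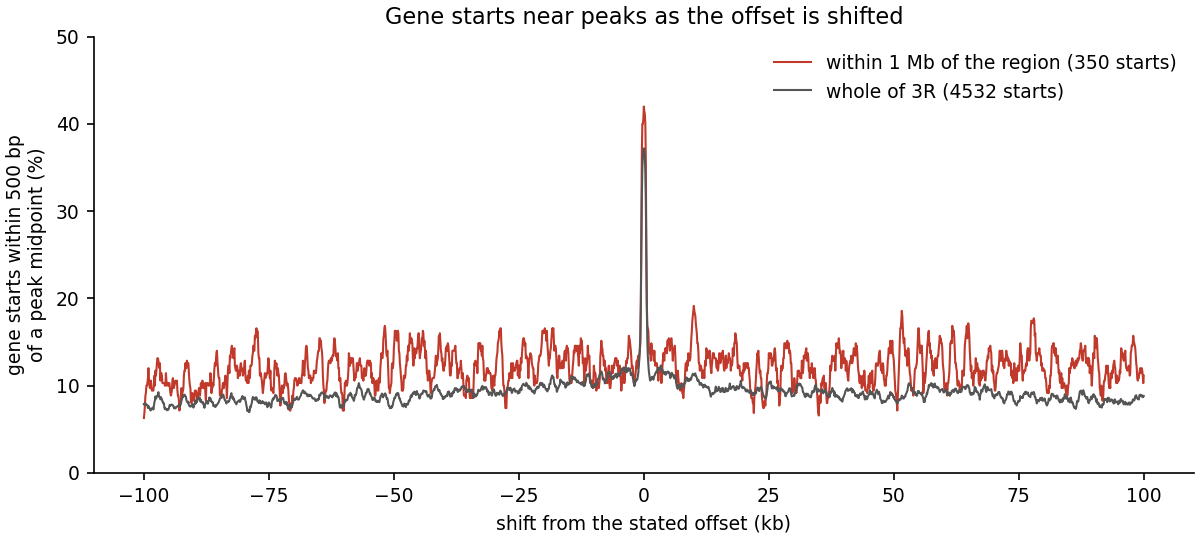
Percentage of protein-coding gene starts with an HA-Ubx peak midpoint within 500 bp (vertical axis) as the gene positions are shifted from the stated offset (horizontal axis, kb). The lines for the 350 starts within 1 Mb of the region and the 4532 starts of 3R both have a single sharp maximum, of 42.0% and 37.2%, at a shift of 0.

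The region was among the most crowded of its arm. When 3R was divided into 278 windows of 100 kb, with the region as one of them, its 29 peaks compared with a median of 7 (lowest 0, highest 31) in the other windows. Windows with 29 peaks or more made up 0.719% of the total, namely 2 windows, one of them the region itself. The other was the window at 11980000 to 12079999, which held 31 peaks with a median score of 48.5. Peaks covered 25105 bp of the region, against a median of 5000 bp in the other windows, and 1.44% of windows, the region included, had as much (4.32% when the weaker 50% of the list was left out). The adjoining windows held 6 peaks on the lower-numbered side and 4 on the higher-numbered side. The crowding therefore began and ended inside the 100 kb, although windows 200 to 400 kb farther along held 31, 22 and 13 peaks. With peaks less than 1000 bp apart joined, the region held 15, and 2.52% of windows had as many. The region also had 23 protein-coding gene starts, against a median of 16, and 24.8% of windows had as many.

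A typical peak of the region was not strong. The median score was 23.8 (quartiles 15.8 and 44.6) for the 29 peaks, against 25.9 (16.9 and 40.5) for the other peaks of 3R. Among the 204 windows with 5 or more peaks, 61.8% had a median score at least as high as the region. Scores within it ran from 9.32 to 138, inside the wider span of the far more numerous other peaks of the arm, 2.76 to 174. Of the 29 peaks, 14 (48.3%) scored above the median of the whole list, 24.9, against 52.6% of the other 3R peaks.

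Several peaks of the region were strong. In the region 6 of 29 peaks (20.7%) were in the 10% of the whole list with the highest score, where scores were 56.8 or more, against 10.5% of the other 3R peaks. The exact 95% binomial interval of the 20.7% was 7.99% to 39.7%, which covers counting error only and treats neighbouring peaks as independent. The 10.5% lies inside it, but this is no test, because the region was picked with the peak list in view. Only 0.719% of windows, the region and 1 other, held 6 or more such peaks. The strongest peak of the region ranked 5th of 10337 in the list and 2nd on 3R. The next ranked 50th, 226th, 302nd, 634th and 778th in the list. At the other end, the weakest peak ranked 10194th.

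**Figure D2:**
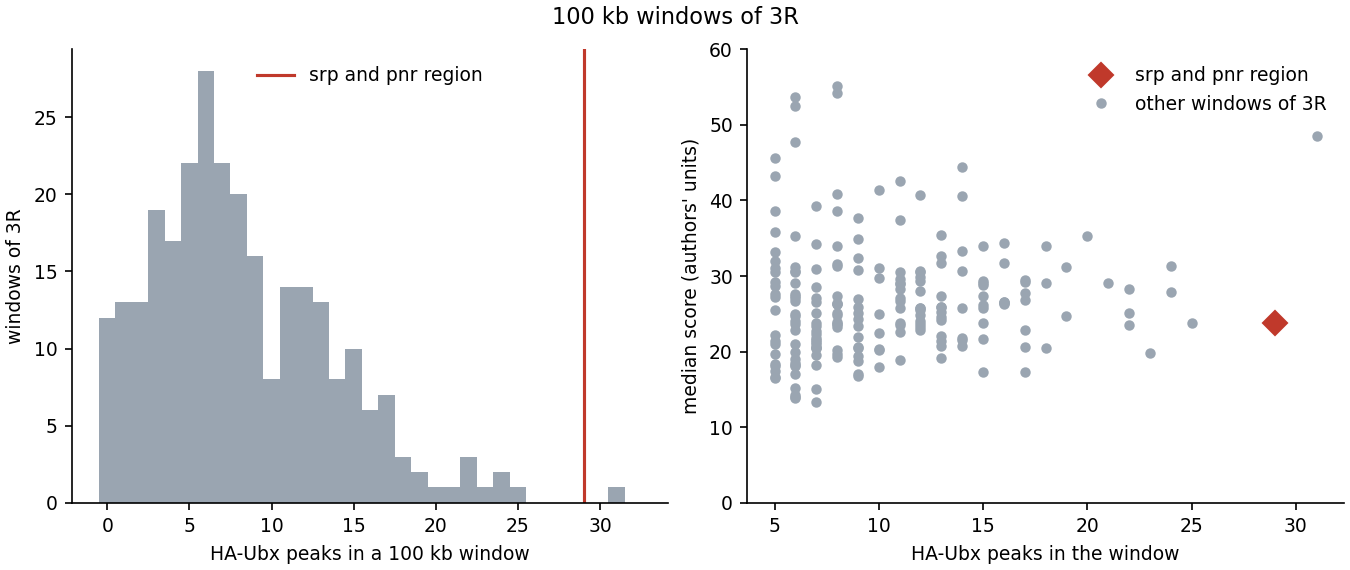
Left, number of HA-Ubx peaks (horizontal axis) in the 100 kb windows of 3R, as a histogram of the other windows with a line at the 29 peaks of the srp and pnr region. Right, median peak score against the number of peaks for windows with 5 or more peaks: the region (diamond) is far to the right, with 1 window beyond it, and its median score of 23.8 is in the midst of the other windows.

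The peaks stood in 7 runs, taking neighbours with midpoints at most 5000 bp apart as 1 run. Every one of the 29 had another midpoint within 5000 bp, against 73.4% of the other 3R peaks. The 28 gaps between the edges of neighbouring members had a median of 886.5 bp, with a smallest gap of 63 bp; 14 of them were under 1000 bp and 5 were over 5000 bp. By size, 1 run had 13 peaks, 1 had 4, 2 had 3 and 3 had 2. The run of 13 lay over pnr and extended for 23424 bp. Runs of 13 or more peaks were 0.177% of the 1133 runs of 3R (single peaks counted as runs), and the largest of the arm had 21.

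The pnr gene, at 11851801 to 11867518 on the plus strand (FBgn0003117), held the 2 strongest peaks. Its body, 15718 bp long, contained the midpoints of 8 peaks, and all 3 of its annotated starts were covered. The start pair at 11851801 and 11851974, from which the longer transcripts run, lay inside a peak of 1301 bp at 11851238 to 11852538 that scored 103. The start at 11860308, used by the shorter transcripts, lay inside a peak of 1018 bp at 11859875 to 11860892 with a score of only 23.2. The strongest peak of the region, scoring 138, lay at 11862854 to 11863472, was 619 bp wide and fell in the first intron of all 4 annotated pnr transcripts. It was followed after a gap of 132 bp by a second intronic peak, at 11863605 to 11864069, with a score of 33.3.

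The remaining peaks in pnr scored below the median of the whole list, 24.9. In the first intron of the longer transcripts, between its early and late starts, peaks at 11853585 to 11853946, 11855886 to 11857469 and 11857698 to 11858246 scored 9.32, 23.6 and 13.0, the first being the lowest score of the region. The narrowest peak of the region, 207 bp at 11866749 to 11866955, lay in the last exon of pnr, in the annotated 3′ UTR of 2 transcripts, and scored 14.9. Upstream of pnr, between it and GATAe, 3 peaks scored 33.9, 83.1 and 17.0. The strongest of these, at 11847453 to 11848342 and 890 bp wide, ranked 226th in the list.

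At srp the starts themselves were mostly uncovered. Yet only 40.2% of the 3410 protein-coding genes of 3R had any start covered, and srp was among them. The gene lies at 11811874 to 11829807 on the plus strand (FBgn0003507), is 17934 bp long and held 3 peaks in its body by midpoint. Of its 4 annotated starts, 1 was inside a peak: the start at 11819862, under a peak of 1172 bp at 11819518 to 11820689 that scored 37.5. The first start, at 11811874, was 758 bp from the edge of the nearest peak, which lay upstream at 11810349 to 11811116 and scored 44.6. A stronger peak, at 11809460 to 11810285 with a score of 62.1, stood 63 bp before that one, so that the 2700 bp between the end of Hel89B and srp held 2 peaks.

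Inside srp, a peak at 11815768 to 11816398 in the first intron scored 40.8. A stronger one at 11818770 to 11819320 scored 65.6, and its midpoint fell in an exon annotated as 5′ UTR, 614 bp past the start at 11818156 by its near edge. That stretch is shared with an annotated non-coding transcript on the same strand, lncRNA:CR44133. The start at 11824811 was 4122 bp from the nearest peak edge. The 3 peaks in the srp body thus scored 65.6, 40.8 and 37.5, each above the median of the other 3R peaks, 25.9, whereas the 8 in pnr ran from 9.32 to 138 with a median of 23.4.

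The body of GATAe contained no peak. The gene lies at 11834827 to 11844855 on the plus strand (FBgn0038391), entirely within the longest peak-free stretch of the region, 12224 bp from 11833651 to 11845874. Its starts at 11834827 and 11837996 were 1177 and 4346 bp from the nearest peak edge. An empty body is common for genes of that size: 38.7% of the 444 protein-coding genes of 3R at least as long as GATAe had none. The 5019 bp between srp and GATAe, by contrast, held 4 peaks. The strongest, at 11830629 to 11831604, scored 78.7, and the others scored 23.8, 16.4 and 14.4. In 3 of the 4, the strongest included, the midpoint lay within lncRNA:CR42839, a non-coding gene on the minus strand.

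**Figure D3:**
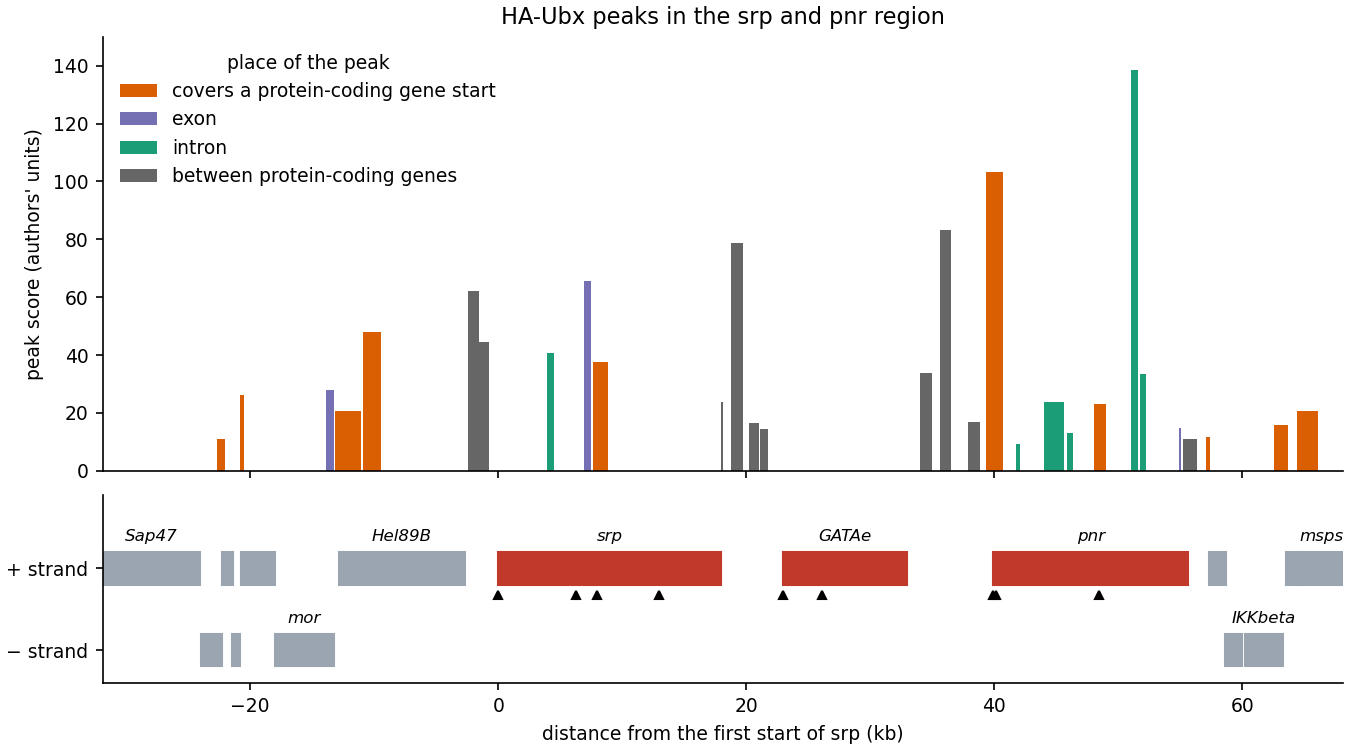
Score of each of the 29 HA-Ubx peaks (vertical axis, authors' units; bar width is peak width) against distance from the first start of srp (horizontal axis, kb), coloured by place. Below, protein-coding genes by strand (GATA factor genes in red, triangles at their annotated starts). The tallest bars, 138 and 103, are in and at the start of pnr, and no peak lies over GATAe.

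The 9 peaks outside the stretch from the end of Hel89B to the end of pnr were mostly at gene starts, and none was among the strongest. This boundary was drawn after the values had been seen, so the contrast is a description. Within the stretch, 3 of 20 peaks (15.0%) covered a protein-coding gene start, and all 6 peaks of the top 10% were there. In the remainder of the region, 7 of 9 peaks (77.8%) covered such a start and the highest score was 47.8. The median scores were 33.6 for the 20 peaks and 20.6 for the 9. On the lower-numbered side, a peak at 11789168 to 11789843 with a score of 11.1 covered the facing starts of CG4287 and CG5516. The next, at 11791026 to 11791387 with a score of 26.2, covered those of CG32856 and Rbf2, a gene of the retinoblastoma family.

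Around the start of Hel89B, which encodes a helicase, 2 peaks covered its annotated starts. The widest peak of the region, 2101 bp at 11798691 to 11800791, scored 20.6, and the one after it, at 11800937 to 11802444, scored 47.8. A peak at 11798021 to 11798616 scored 28.0 and ended 19 bp short of the start of mor, which encodes a subunit of the Brahma chromatin-remodelling complex. Beyond pnr by midpoint, 4 peaks scored between 10.8 and 20.6. The first, at 11867114 to 11868239 with a score of 10.8, overlapped the end of pnr. The others were one over the start of Jhbp4, one over the starts of IKKbeta, a kinase of the innate immune Imd pathway, and CG5013, and one over both starts of msps, which encodes a microtubule-associated protein.

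Most peaks of the region did not lie at a gene start. A protein-coding gene start was covered by 10 of the 29 peaks (34.5%), against 50.8% of the other 3R peaks. Another 10 (34.5%) lay between protein-coding genes, against 15.4% of the others, 6 (20.7%) in introns, against 29.8%, and 3 (10.3%) in exons, against 3.98%. The median distance from a midpoint to the nearest protein-coding start was 1543.5 bp in the region and 513 bp elsewhere. With 29 peaks these shares are coarse: the exact 95% binomial interval of the 34.5% at starts was 17.9% to 54.3%. This interval covers counting error only and treats neighbouring peaks as independent. The 50.8% lies inside it, which again is no test. Peaks of the region had a median width of 768 bp, against 656 bp for the others. Spearman's rho between score and width was 0.19 over the 29 peaks and 0.22 over the 2289, as a description across peaks of 1 list.

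**Figure D4:**
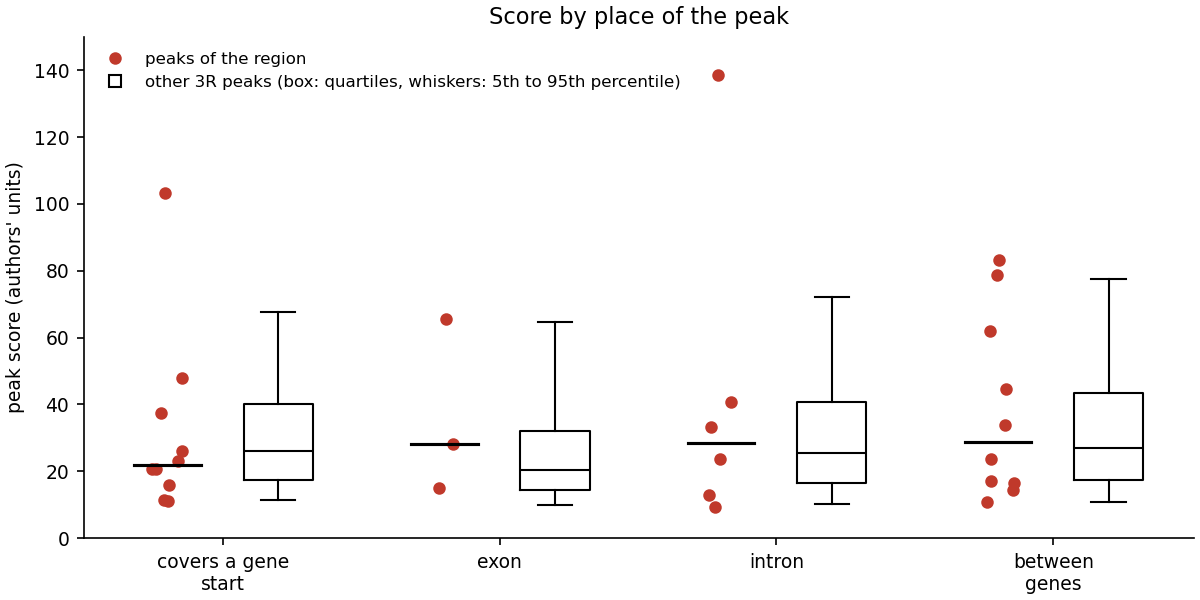
Peak score (vertical axis, authors' units) by place of the peak, with the 29 peaks of the region as points and their median as a line, left, and the other 3R peaks as boxes (quartiles, whiskers from the 5th to the 95th percentile), right. The region's medians, from 21.9 at gene starts to 28.9 between genes, fall within the boxes, and the highest point of each class is near or above the upper whisker.

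Set against other genes of the arm, pnr was surrounded by many peaks in the full list, of which 5 were in its stronger 50%. Within the gene and 10 kb either side there were 15 peaks (12 with 5 kb either side, 8 in the body). The 15 include the peaks over starts of neighbouring genes: Jhbp4, IKKbeta and CG5013, and msps. Of the 3410 protein-coding genes of 3R, 0.264%, namely 9 genes, had as many as 15 within 10 kb. The other 8 were all longer than pnr, the shortest being tara with 34679 bp. With the weaker 50% of the list left out, which was tried for this rank only after its value was known, 5 peaks remained within 10 kb of pnr. On that list 117 genes (3.43%) had as many, 57 of them no longer than pnr, and the highest count among these shorter genes was 9. Within 10 kb of srp 6 peaks remained on that list, more than for pnr. In the full list pnr had 4.20 peaks per 10 kb of that stretch, and btn, with 4.40, was the only gene with more. The srp gene had 9 peaks within 10 kb, and 1.88% of genes, srp included, had as many. Per 10 kb srp had 2.37, and 10.4% of genes, srp included, had as high a value. GATAe likewise had 9 within 10 kb, none of them in its body. All of these 9 were also within 10 kb of srp or of pnr, so the counts of the 3 genes are not independent.

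The other GATA gene of the arm, grn, had 3 peaks within 10 kb, equal to the median of 3 over the genes of 3R. It is 34077 bp long and held 1 peak in its body, against a median of 0. Per 10 kb it had 0.555 peaks, against a median of 0.972. Its highest score was 65.7, and its 1 start was covered. All 4 GATA genes of 3R had a peak within 10 kb, but so did 85.9% of all protein-coding genes of the arm.

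For context, 10 further genes of blood cell and heart development on 3R were examined. Of these, 9 had a peak within 10 kb, a share of 90.0% beside the 85.9% of all genes. The gene pnt, an Ets factor of the Ras pathway, had 21 peaks within 10 kb, the most of the list, with a highest score of 90.5, in a body of 55937 bp. The zinc-finger and homeobox gene zfh1 had 7, with a highest score of 72.6. The forkhead gene jumu and the heart gene tin, which encodes a homeobox factor, had 4 each, with highest scores of 25.2 and 79.6. The nuclear receptor gene svp had 3, up to 80.9, and the homeobox genes lbe and lbl had 2 each, up to 102 and 57.6. The homeobox gene bap had 1, which scored 53.2. Delta (Dl), which encodes a Notch ligand, also had 1, which scored 14.3. No peak was listed within 10 kb of eater, a phagocytic receptor gene of blood cells. The median over the 10 genes was 2.5 peaks, against a median of 3 over all genes of the arm. The 10 genes were longer, with a median of 17354 bp against 2114.5 bp. Per 10 kb their median was 0.635 peaks, against 0.972 over all genes of the arm.

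**Figure D5:**
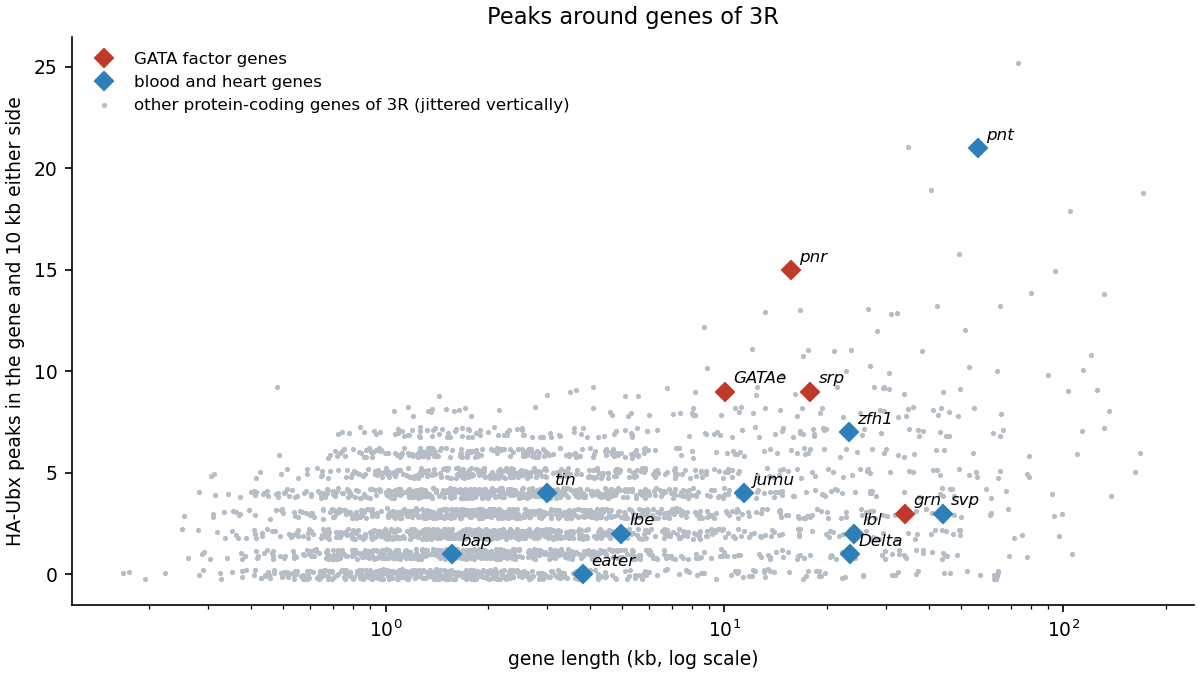
Number of HA-Ubx peaks in each protein-coding gene of 3R and 10 kb either side (vertical axis) against gene length (horizontal axis, kb, log scale). Diamonds mark the GATA factor genes and the blood and heart genes, dots the others: in the full list pnr, with 15 peaks, stands above all other genes of similar or shorter length, srp and GATAe have 9 each, and grn has 3.

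The bounds of the region fell in peak-free ground. The first member, scoring 11.1, had its midpoint 9505.5 bp inside the lower bound, and the last peak before that bound, at 11760608 to 11761139 over the start of Sap47, lay 19126.5 bp outside it and scored 32.1. The last member, at 11876264 to 11877940 over the start of msps, was 2898 bp inside the upper bound and scored 20.6. The next peak, at 11923236 to 11924564 over the start of Mhcl, was 43900 bp beyond it and scored 21.1. A shift of either bound by a few kb outward would therefore add no peak.

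Scores of 3 of the 29 peaks (10.3%) carried more than 5 decimals, as a mean of several values would, against 3.19% of the other 3R peaks. These were the peaks over the srp start at 11819862 and the pnr start at 11860308, and the peak at 11855886 to 11857469 in pnr. What the part of such averaging in their middling scores of 37.5, 23.2 and 23.6 may be was not tested.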

How the data were processed

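HA-Ubx was immunoprecipitated from S2-DRSC HA::Ubx cells in 2 replicates, with 1 input. The submitters' processing notes name BWA 0.7.12, MACS2 and the build dm3; how replicates and input were combined is not stated there, nor are the thresholds. The authors deposited 1 list of peaks with a score each, whose scale is not stated, and depth is unknown.

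Coordinates were turned to 1-based. Peaks were ranked by score over the whole list, and 3R was tiled from its first to its last peak in windows of the region's length, 100 kb. Gene starts are all annotated transcript starts of the Ensembl annotation of Release 6 (release 115), moved by the stated offset. Peaks were counted in gene bodies, and in stretches around or between genes, by their midpoints. All 14 genes listed for comparison were found in the annotation used, Dl under its current symbol Delta through the RefSeq synonyms. The members, lists and comparisons were chosen with earlier results of these data known. Named were srp, pnr, the listed genes, the genes in the region, and the peaks that are strongest, weakest, widest, narrowest, nearest to the srp and pnr starts or at the bounds; other peaks are named to account for all 29, and tara, btn and Mhcl were named after their values were seen. No test was made. Sequence was not read, because a dm3 genome was not used here. The functions were tested on simulated data. Work was done in Python 3.11.15 with pandas 2.3.3, scipy 1.17.1, matplotlib 3.10.9 and numpy 2.4.6. Alternatives changed the windows, score threshold, joining of close peaks and distances.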

Additional observations from a re-analysis of the deposited data

How the results depend on the processing

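With the weaker 50% of the list left out, the region held 14 peaks, of which 5 lay within 10 kb of pnr and 6 within 10 kb of srp. The 5 of pnr was a number that 117 genes reached (9 genes reached that of pnr in the full list). Without the weaker 50%, 4.32% of windows had as much covered length, against 1.44% with the full list. Joining peaks less than 1000 bp apart left 15 in the region. Of windows with 10 or more peaks, 70.8% had as high a median score as the region. The share of members with a neighbour was 27.6% within 1000 bp (15.2% of other 3R peaks), 86.2% within 2000 bp (42.03%), and 85.7% within 5000 bp without the weaker 50% of the list (53.4%). Counting gene bodies alone gave 3 peaks for srp and 8 for pnr. The other alternatives stayed within 1.5 times of a count or inside the exact 95% interval of a share. The exception was that 57.9% of other 3R peaks had a midpoint within 1000 bp of a gene start. Among the members, 13.8% were in the top 5% of the list and 31.0% in the top 25%, where the whole list has 5% and 25% by definition. Of the 3 cutoffs, the members' share was nearest to that of the list at the top 25%. The interval belongs to the top 10%, so it cannot judge the shares at these other cutoffs. The share of windows with as many peaks as the region ran from 0.312% (4 large autosomal arms) to 2.52% (close peaks joined). Leaving out scores with more than 5 decimals and this count of genes were chosen after seeing the data. No replicate could be left out and no test of the difference from other regions was made. No paired analysis was possible because there is 1 list for both immunoprecipitations. Depth is unknown, so a stretch without a peak need not lack binding.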
